A study of Mus musculus with 6 samples.

Results

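Probe sets of 7 genes of sterol metabolism were examined in mouse amygdala: Hmgcs1, Idi1, Fdps, Sqle, Lss and Cyp51, which encode enzymes of cholesterol synthesis, and Insig1, which encodes a sterol-sensing regulator of that pathway. All probe sets whose platform annotation names 1 of these symbols were taken, which gave 17 of the 45037 probe sets on the array that are not controls, for 7 of 18193 named genes. None of the 7 encodes a protein of cholesterol uptake, so the group is called the sterol synthesis genes and Insig1 here. RNA came from the dissected amygdala of 6 male mice of strain 129S1/SvImJ (S1), aged 8 to 10 weeks and killed 2 h after extinction training, which is meant to reduce a learned fear. Of these, 3 mice had received the ZnR diet and 3 the control diet, and the labels give no other treatment, genotype or allele in either group. The labels do not say how much zinc the ZnR diet held, so no direction of zinc supply is attached to it. Mice are called by the number in their sample titles, which is 3, 7 and 10 for the ZnR diet and 1, 9 and 11 for the control diet. What this number stands for is not stated. It was used as the second axis because it is the only other label that differs between arrays. Nothing in the labels says more about how the mice were housed or processed, so the p-values measure the spread between these 6 samples.

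Cholesterol is made from acetyl-CoA through the mevalonate pathway, and in the adult brain most of it is made locally, by glia and neurons, because lipoproteins of the blood do not cross the blood-brain barrier. When sterol in the endoplasmic reticulum is low, the membrane-bound transcription factor SREBP2 is carried to the Golgi by its escort SCAP, cut free, and binds sterol regulatory elements in the promoters of most genes of the pathway. When sterol is ample, INSIG proteins hold SCAP in the endoplasmic reticulum. Insig1 is itself a target of the freed factor, so its RNA is often read along with that of the enzymes.

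RefSeq promoter windows (build GRCm38.p6) were matched by symbol for 5 of the 7 genes, namely Hmgcs1, Idi1, Lss, Insig1 and Cyp51, and the 250 bases before the start used in that table were searched on both strands for 4 motifs. These were TCACCCCAC, a classical sterol regulatory element, its looser form TCACNCCAC, CCAAT, which is bound by the SREBP partner NF-Y, and GGGCGG, which is bound by Sp1. The window of Hmgcs1 is shown because it alone of the 5 held TCACCCCAC, and those of Insig1 and Cyp51 because their levels had the smallest p-values for the title number. Each is written 5′ to 3′ on the strand of the gene, with every match to a motif or its reverse complement in capitals. The windows lie at chr13:119690101-119690350 on the plus strand for Hmgcs1, at chr5:28071162-28071411 on the plus strand for Insig1, and at chr5:4104698-4104947 on the minus strand for Cyp51.
Hmgcs1: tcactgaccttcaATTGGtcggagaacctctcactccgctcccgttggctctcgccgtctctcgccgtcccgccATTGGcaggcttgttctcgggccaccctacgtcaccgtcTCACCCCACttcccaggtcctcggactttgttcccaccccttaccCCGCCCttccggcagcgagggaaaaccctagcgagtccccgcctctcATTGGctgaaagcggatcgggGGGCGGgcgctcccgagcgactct
Insig1: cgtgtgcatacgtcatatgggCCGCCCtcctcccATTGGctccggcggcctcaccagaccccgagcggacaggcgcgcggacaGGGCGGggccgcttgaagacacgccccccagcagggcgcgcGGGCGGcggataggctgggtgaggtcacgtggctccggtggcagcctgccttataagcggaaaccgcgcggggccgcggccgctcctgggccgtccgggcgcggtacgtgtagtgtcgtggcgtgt
Cyp51: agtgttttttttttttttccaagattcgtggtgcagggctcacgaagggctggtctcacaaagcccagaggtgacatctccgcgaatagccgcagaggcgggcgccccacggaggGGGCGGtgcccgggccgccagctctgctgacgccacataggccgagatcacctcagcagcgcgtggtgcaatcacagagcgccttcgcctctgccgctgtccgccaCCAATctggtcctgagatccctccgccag
In Hmgcs1, TCACCCCAC covers positions -137 to -129 counted from the annotated start. That motif was in 0.501% of 32536 windows of the same length, and the looser form, which matched in Hmgcs1 at the same bases, was in 1.045%. Hmgcs1 also held 3 matches to CCAAT and 2 to GGGCGG, Insig1 held 1 and 3, and Cyp51 held 1 of each. Idi1 held 2 matches to CCAAT and 1 to GGGCGG, and Lss 1 and 2. The Lss window differs from the other 4: it ends at base 76531604 of chromosome 10, past the RefSeq gene start at 76531565, so its last bases lie inside the annotated gene. CCAAT was in 33.81% and GGGCGG in 32.97% of all windows, so these 2 motifs are common letters in promoters. A match describes the sequence only, and for the other 4 windows the search says no more than that TCACNCCAC is not in these 250 bases.

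Each mouse gave 1 Affymetrix Mouse430_2 array, a 1-colour array whose probe sets read the 3′ end of transcripts, and the log2 levels deposited by the authors were used. The median level of an array lay between 4.04 and 4.09, and pairs of arrays correlated at 0.996 to 0.998 over all probe sets. Probe sets with a mean level of at least 4 on the log2 scale were tested, 22877 in all for 11221 named genes. Of the 17 probe sets of the 7 genes, 13 passed: 4 of Hmgcs1, 2 each of Idi1, Lss and Cyp51, and 1 each of Sqle, Fdps and Insig1. The other 4 had mean levels of 3.38 (Hmgcs1 1441536_at), 3.07 (Lss 1420014_at), 1.42 (Fdps 1438150_at) and 3.73 (Cyp51 1422534_at). Every gene kept at least 1 tested probe set, and the lowest tested mean was 6.0, of an Lss probe set. Levels of different probe sets cannot be compared with each other, so each is read across mice only. Control mouse 9 stood apart in choroid plexus markers, with a mean level of 9.28 against at most 6.56 in the other 5 mice. Part of this gap came from the choice of markers. Kcnj13 read 7.56 in control mouse 9 and at most 3.45 elsewhere, and Kl 6.17 and at most 4.02. Without control mouse 9, neither would have reached the minimum mean of 4. Ttr and Clic6, which did not depend on it, were also highest there, at 14.68 and 8.70 against at most 12.27 and 6.81.

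No difference between the ZnR and control diets passed the test in these genes. The difference, ZnR minus control, lay between -0.08 and 0.40 on the log2 scale over the 13 probe sets, and the groups overlapped in every one. None passed an adjusted p of 0.05 in limma with Benjamini-Hochberg adjustment over all 22877 probe sets; the lowest adjusted p was 0.78. At an unadjusted p of 0.05, 1 of 13 passed, which was Cyp51 1422533_at, against 6.38% of all probe sets tested. The means were higher in ZnR mice for 12 of 13 probe sets, against 53.0% of all probe sets, but with differences whose median was 0.07, compared with 0.01 over all genes tested. Probe sets of 1 gene, and genes of 1 pathway, are not independent of each other in the same 6 mice. The tissue holds many cell types, and fewer cells of a type and less RNA per cell cannot be told apart.

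Hmgcs1 encodes the cytosolic HMG-CoA synthase, which condenses acetyl-CoA and acetoacetyl-CoA at the entry of the pathway. Probe set 1433445_x_at read log2 levels of 12.75, 12.86 and 12.76 in ZnR mice 3, 7 and 10, against 12.90, 12.57 and 12.68 in control mice 1, 9 and 11. Control mouse 1 was the highest and control mouse 9 the lowest of the 6, with all ZnR mice between them. The difference was 0.07 ± 0.10 (SE), with a 95% confidence interval of -0.17 to 0.31. The other tested probe sets gave 0.10 ± 0.10 (1433444_at), 0.04 ± 0.08 (1433443_a_at) and 0.05 ± 0.08 (1433446_at), with adjusted p-values of 0.91 to 0.96. In 1433444_at the levels were 12.69, 12.79 and 12.80 in ZnR mice, against 12.84, 12.52 and 12.64 in control mice. Control mouse 1 was again the highest and control mouse 9 the lowest. The spread over all 6 mice was narrow in this gene, with SDs of 0.06 to 0.12 on the log2 scale. An ending _x_at or _s_at marks probes that can also hybridise with other transcripts, so those probe sets are less specific.

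Idi1 encodes isopentenyl-diphosphate isomerase, which interconverts the pathway's C5 building blocks, and Fdps encodes farnesyl diphosphate synthase, which joins them. Idi1 1451122_at read 10.66, 10.63 and 10.37 in ZnR mice, against 10.51, 10.30 and 10.41 in control mice, a difference of 0.14 ± 0.11 (adjusted p = 0.87). ZnR mice 3 and 7 lay above all control mice, and ZnR mouse 10 lay below control mice 1 and 11. The second Idi1 probe set, 1423804_a_at, read 9.27, 9.51 and 9.40 in ZnR mice, against 9.45, 8.53 and 9.05 in control mice. Its difference of 0.39 ± 0.22, a fold of 1.31, had an interval of -0.14 to 0.91 and an adjusted p of 0.84, and control mouse 9 stood apart below the other 5. The difference was 0.15 without control mouse 9 (unadjusted p = 0.36) and 0.61 without control mouse 1 (unadjusted p = 0.013, adjusted p = 0.41). Fdps 1423418_at read 9.59, 9.34 and 9.22 in ZnR mice, against 9.20, 9.36 and 9.28 in control mice. ZnR mouse 3 was the highest, the other 5 mice lay close together, and the difference was 0.10 ± 0.11 (adjusted p = 0.91).

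Sqle encodes squalene epoxidase, a rate-limiting step after squalene, Lss encodes lanosterol synthase, which closes the sterol rings, and Cyp51 encodes the lanosterol 14-alpha-demethylase. Sqle 1415993_at read 9.96, 9.63 and 9.55 in ZnR mice, against 9.59, 9.73 and 9.74 in control mice, and its difference of 0.03 ± 0.12 had an interval of -0.27 to 0.32. ZnR mice held both the highest and the lowest value. Lss 1426913_at read 7.75, 8.02 and 7.97 in ZnR mice, against 8.16, 7.63 and 7.83 in control mice, a difference of 0.04 ± 0.15. The second Lss probe set, 1420013_s_at, read 5.97, 5.85 and 6.05 in ZnR mice, against 6.43, 6.003 and 5.69 in control mice. This was the 1 tested probe set of the 13 with a lower mean in ZnR mice, by -0.08 ± 0.18, and the control values enclosed the ZnR values in both Lss probe sets.

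The 2 tested probe sets of Cyp51 gave different values. With 1450646_at the levels were 9.63, 9.53 and 9.46 in ZnR mice, against 9.75, 9.42 and 9.42 in control mice, and the means differed by 0.01 ± 0.11. With 1422533_at the levels were 8.23, 8.16 and 8.26 in ZnR mice, against 8.20, 7.55 and 7.71 in control mice. There ZnR mice were tightly grouped and lay well above control mice 9 and 11, but control mouse 1 fell among them. The means were 8.22 ± 0.05 in ZnR mice and 7.82 ± 0.34 in control mice (SD, n = 3 each). The difference was 0.40 ± 0.17 on the log2 scale, a fold of 1.32, with an interval of 0.0059 to 0.79, an unadjusted limma p of 0.047 and an adjusted p of 0.78. It was 0.26 without control mouse 9 (unadjusted p = 0.14) and 0.59 without control mouse 1 (unadjusted p = 0.00064, adjusted p = 0.26). The gap between the 2 probe sets was compared within each mouse, a comparison chosen after seeing the data: 1422533_at minus 1450646_at was higher in ZnR mice than in control mice by 0.39, with a two-sided exact permutation p of 0.1, the smallest that 3 against 3 allows. The same comparison in Idi1 gave 0.24 with an exact permutation p of 0.5.

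Insig1, the sterol sensor's partner, had 1 probe set. It read 9.21, 9.17 and 9.09 in ZnR mice, against 9.44, 8.74 and 8.89 in control mice, so ZnR mice lay inside the control range. Means were 9.16 ± 0.06 in ZnR mice and 9.02 ± 0.37 in control mice (SD, n = 3 each), and the difference was 0.14 ± 0.18, with an interval of -0.28 to 0.56 and an adjusted p of 0.93. It was -0.0046 without control mouse 9 and 0.34 without control mouse 1 (unadjusted p = 0.0088, adjusted p = 0.40).

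**Figure D1:**
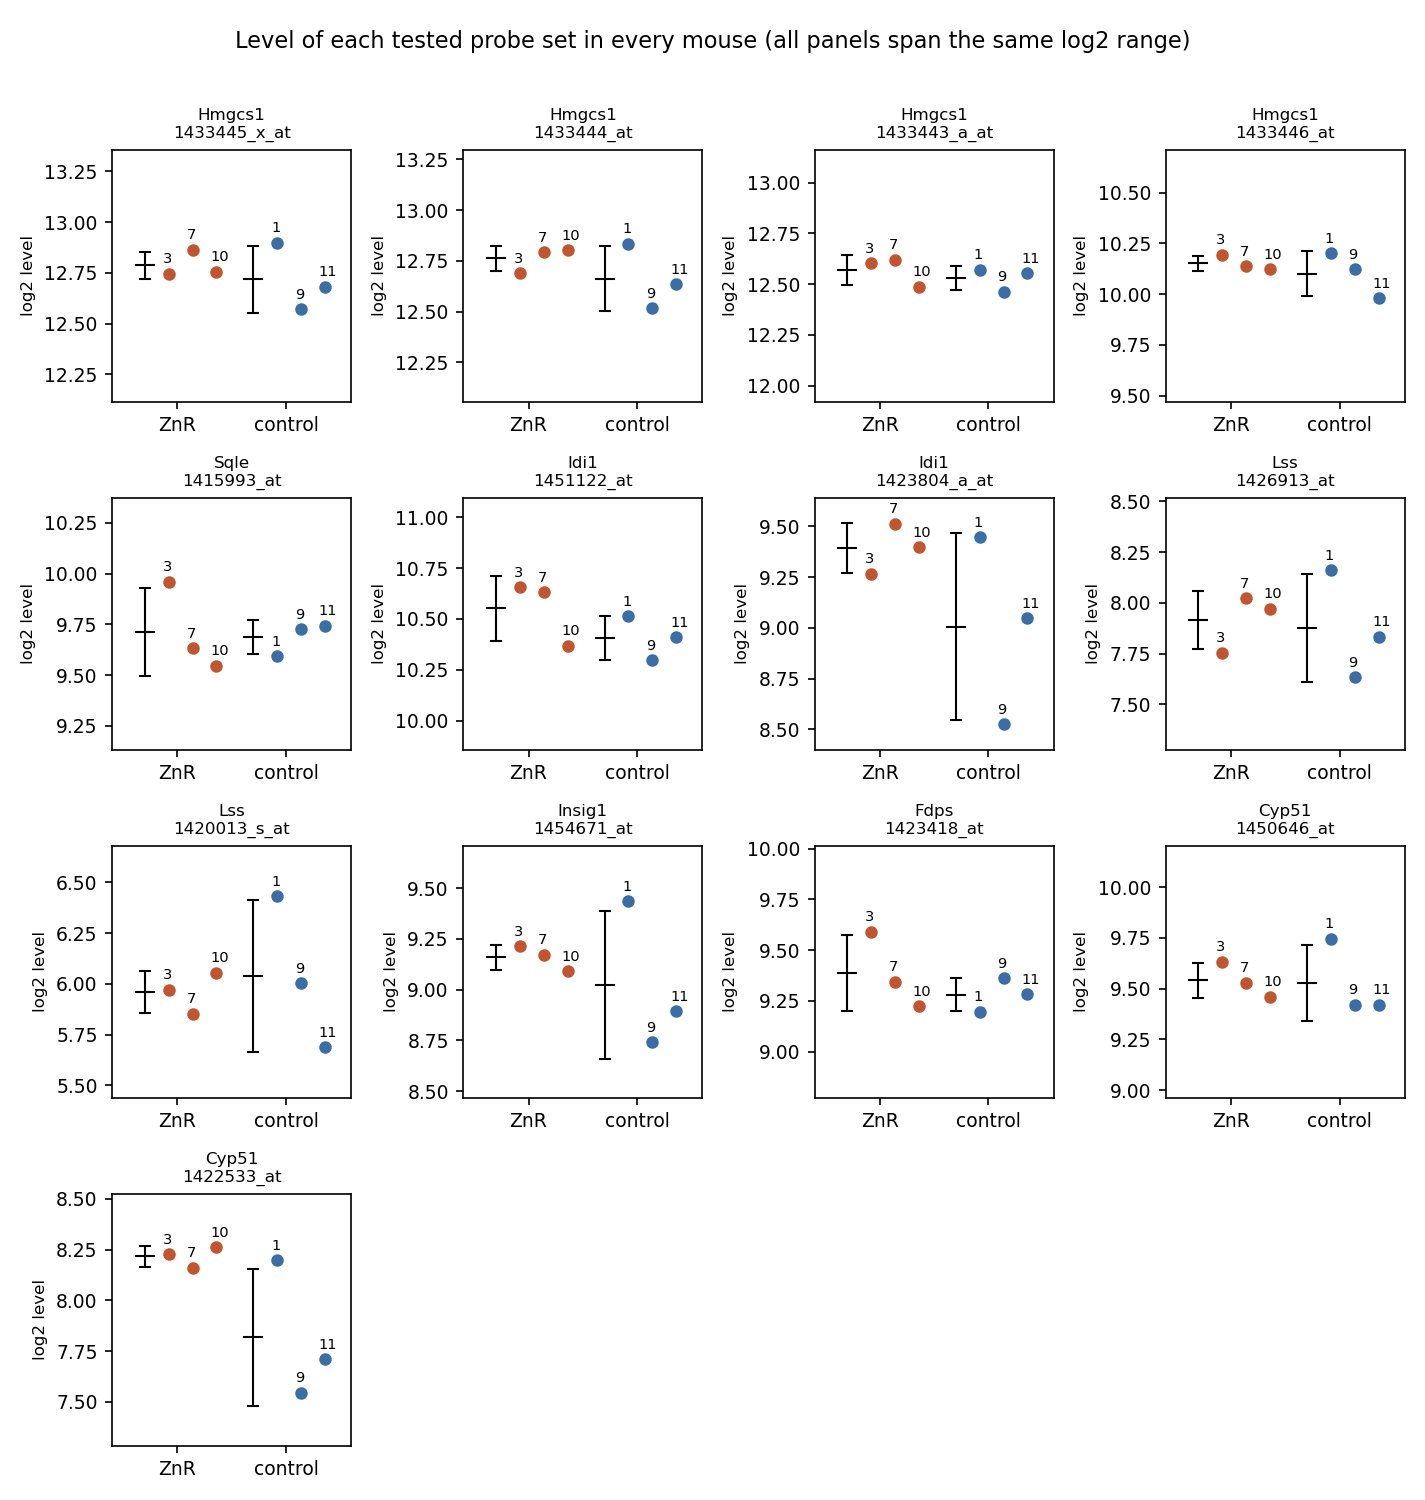
Log2 level (y axis) of the 13 tested probe sets in every mouse, 1 panel per probe set. Points are mice, with their title number, ZnR diet left in orange and control diet right in blue, and the bar beside them is the mean with its SD (n = 3 each); panels start at different levels but span the same log2 range. Control mouse 9 is the lowest in 9 panels and control mouse 1 the highest in 7.

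**Figure D2:**
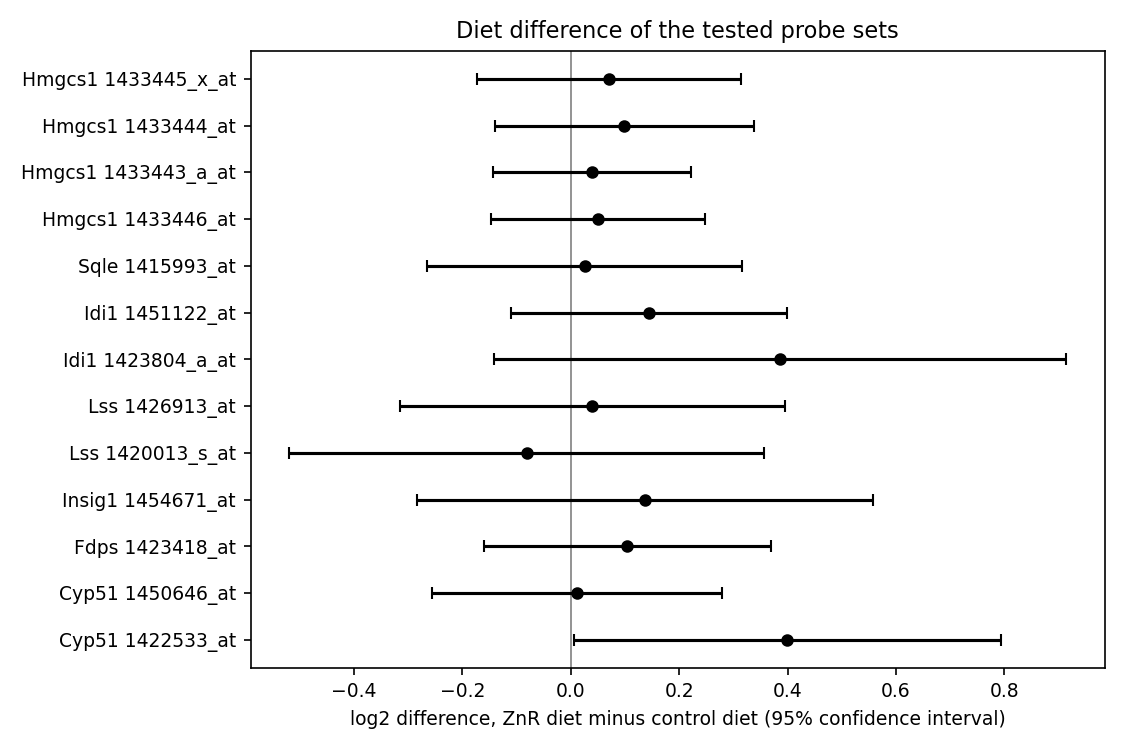
Log2 difference, ZnR diet minus control diet (x axis), of the 13 tested probe sets, with 95% confidence intervals from limma. The interval of Cyp51 1422533_at, from 0.0059 to 0.79, is the 1 that leaves out 0.

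The size of the diet difference depended on single mice of both diets. In 0 of 13 probe sets did all ZnR mice lie above all control mice, against 6.66% of all probe sets tested. Control mouse 9 was the lowest of the 6 mice in 9 of 13 probe sets, against 22.7% of all probe sets, and control mouse 1 was the highest in 7 of 13, against 18.5%. The SD was larger in control mice than in ZnR mice in 9 of 13 (69.2%), and in 63.8% of all probe sets. Without control mouse 9 the number of probe sets higher in ZnR mice was 8 of 13, and the median difference over the 7 genes was -0.0020; without control mouse 1 these were 12 of 13 and 0.16. At an unadjusted p of 0.05, 3 of 13 passed without control mouse 1, where 9.8% of all probe sets did. These were the probe sets of Cyp51, Idi1 and Insig1 whose values without that mouse are given with each gene. Without any 1 of the other 5 mice 0 of 13 passed, against 3.73% to 6.67% of all probe sets. Leaving out ZnR mouse 3 gave differences of -0.098 in Sqle, 0.0025 in Fdps and -0.034 in Cyp51 1450646_at. The median over the 7 genes was then 0.09, and 10 of 13 probe sets were higher in ZnR mice. Quantile normalization turned Cyp51 1450646_at to -0.0080, which left 11 of 13 higher in ZnR mice.

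Along the number in the sample title, the fitted levels of these genes ran downwards, though none passed the adjusted test. The trend was fitted with diet in the model and is given as the fitted log2 change from number 1 to number 11. All 13 tested probe sets had a negative value, from -0.08 to -0.49, whereas 46.3% of all probe sets did. Over the 7 genes the median was -0.19, and over all genes tested it was 0.03. At an unadjusted p of 0.05, 2 of 13 passed in the lower direction, which were Insig1 and Cyp51 1450646_at, against 6.39% of all probe sets. The lowest adjusted p was 0.37. Over the whole array 1 probe set passed, with an adjusted p of 0.045. The group was put together with its course along this number already known, so the shared direction is a description.

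Insig1 had the largest fitted change, -0.49 ± 0.16, a fold of 1.41 lower at number 11, with an interval of -0.88 to -0.11, an unadjusted limma p of 0.020 and an adjusted p of 0.37. In order of number, it read 9.44 in control mouse 1, 9.21 in ZnR mouse 3, 9.17 in ZnR mouse 7, 8.74 in control mouse 9, 9.09 in ZnR mouse 10 and 8.89 in control mouse 11. The lowest levels were those of control mice 9 and 11, and the ZnR mice differed little among themselves. Pearson's r with the number over the 6 mice was -0.82 (exact permutation p = 0.050, adjusted 0.63) and Spearman's rho was -0.83 (exact permutation p = 0.058, adjusted 0.64). Without mice 1 and 3, the 2 farthest from the median number, r was -0.44 over 4 mice. The fitted change was -0.10 without control mouse 1 (unadjusted p = 0.61) and -0.61 without ZnR mouse 3 (unadjusted p = 0.015, adjusted p = 0.32), so the trend in Insig1 rested on control mouse 1.

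Cyp51 1450646_at had a fitted change of -0.32 ± 0.10, a fold of 1.25, with an interval of -0.56 to -0.07, an unadjusted limma p of 0.020 and an adjusted p of 0.37. It was lower at each step within the ZnR mice, and in control mice it was high in mouse 1 and nearly equal in mice 9 and 11. Its r was -0.97 (exact permutation p = 0.0056, adjusted 0.48), its rho -0.83 (exact permutation p = 0.058, adjusted 0.64), and r without mice 1 and 3 was -0.81. The other Cyp51 probe set, 1422533_at, had a change of -0.39 ± 0.18 (adjusted p = 0.54), with ZnR mouse 10 the highest of the 3 ZnR mice; without control mouse 1 it was 0.10. Hmgcs1 1433446_at had the smaller change of -0.16 ± 0.10, but its 6 values kept the order of the numbers, with mouse 9 just above mouse 10: 10.20 in control mouse 1, 10.19 in ZnR mouse 3, 10.14 in ZnR mouse 7, 10.12 in control mouse 9, 10.12 in ZnR mouse 10 and 9.98 in control mouse 11. Its r was -0.83 (exact permutation p = 0.018, adjusted 0.53) and its rho -1.0 (exact permutation p = 0.0028, adjusted 0.42), and r without mice 1 and 3 was -0.75. These correlations were computed for 22877 probe sets, and adjusted over all of them none passed 0.05, while 1785 had an exact permutation p for r under 0.05.

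Idi1 had fitted changes of -0.22 ± 0.13 (1451122_at) and -0.36 ± 0.28 (1423804_a_at), and Lss of -0.19 ± 0.20 (1426913_at) and -0.45 ± 0.19 (1420013_s_at, adjusted p = 0.51). The change in Lss 1420013_s_at was -0.03 without control mouse 1 (unadjusted p = 0.92) and -0.26 without control mouse 11. In Idi1 1423804_a_at it was 0.39 without control mouse 1, -0.20 without control mouse 9 and -0.60 without ZnR mouse 3. The remaining Hmgcs1 probe sets gave -0.18, -0.13 and -0.08. Without control mouse 1, 8 of 13 probe sets had a negative value, against 11 or more without any 1 of the other mice. The count at an unadjusted p of 0.05, in either direction, was 2 of 13 with all mice, against 10.2% of all probe sets. It was 4 without ZnR mouse 3 (11.7% of all) and 4 without ZnR mouse 10 (9.04%), and 1 without ZnR mouse 7 (8.27%) and 1 without control mouse 11 (7.17%).

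Sqle and Fdps had another order of mice. Both had their highest level in ZnR mouse 3 and stepped down in ZnR mice 7 and 10, by -0.41 in Sqle and -0.37 in Fdps between mice 3 and 10. In control mice Sqle stepped up with each number, by 0.15 between mice 1 and 11, and Fdps by 0.09 with mouse 9 the highest. Their fitted changes with diet in the model were near 0 with all mice, at -0.08 ± 0.17 in Sqle and -0.08 ± 0.16 in Fdps. Without control mouse 1 these changes were -0.55 in Sqle and -0.52 in Fdps, and without ZnR mouse 3 they were 0.12 and 0.08. The difference in slope between the diets, a test added after seeing the data, was -0.76 in Sqle and -0.65 in Fdps, ZnR minus control from number 1 to 11. Their unadjusted limma p-values were 0.018 and 0.033, and their adjusted p-value was 0.58 in each. Lss 1420013_s_at had a slope difference of the opposite sign, 0.78, with an unadjusted p of 0.045 and the same adjusted p of 0.58. Of all probe sets 8.62% had an unadjusted p under 0.05 in that test, and none an adjusted one.

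**Figure D3:**
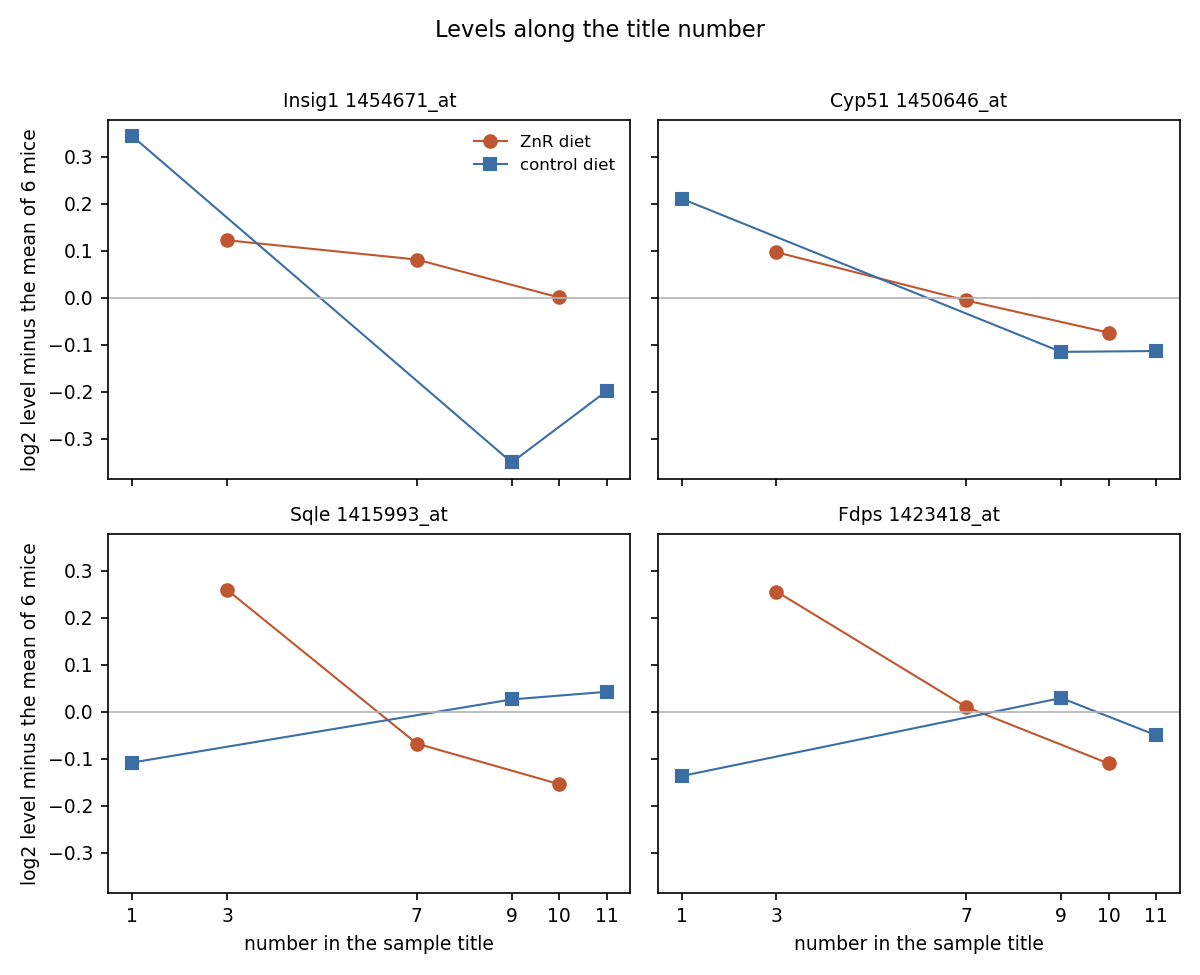
Log2 level minus the mean of the 6 mice (y axis) against the number in the sample title (x axis) for Insig1, Cyp51 1450646_at, Sqle and Fdps. Circles are ZnR mice and squares control mice, joined within each diet. Insig1 and Cyp51 start highest in control mouse 1, whereas Sqle and Fdps peak in ZnR mouse 3; Sqle is lowest in ZnR mouse 10 and Fdps in control mouse 1.

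Other genes of sterol metabolism were read from lists, with 1 probe set per gene, the one of highest mean level. None of their genes passed an adjusted p of 0.05 for diet or for the number. Of all genes tested, 54.5% had a higher mean in ZnR mice and 40.1% were lower along the number. Of 14 other genes of cholesterol synthesis 12 were tested, and 7 had a higher mean in ZnR mice, with a median difference of 0.04; none passed an unadjusted p of 0.05. The smallest p-values for diet belonged to Ebp, Msmo1 and Hsd17b7, which act late in the pathway, with differences of 0.19 ± 0.17, 0.14 ± 0.13 and 0.08 ± 0.07. Along the number, 9 of 12 were lower and the median was -0.11. Msmo1, the sterol C4-methyl oxidase, had a fitted change of -0.37 ± 0.12 (adjusted p = 0.37), reading 10.95, 10.94 and 10.66 in ZnR mice, against 10.93, 10.59 and 10.60 in control mice. Control mouse 1 and ZnR mice 3 and 7 were high, and the 3 mice with higher numbers low. Mvd, which makes isopentenyl diphosphate, gave -0.36 ± 0.12 (adjusted p = 0.38). Ebp, a sterol isomerase, went the other way with 0.46 ± 0.15 (adjusted p = 0.38): control mouse 1 read 8.07 and the other 5 mice 8.57 to 8.73.

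Of 9 genes of sterol sensing and SREBP activation 7 were tested, 4 with a higher mean in ZnR mice. Srebf2, which encodes the SREBP that drives sterol synthesis, read 6.45, 6.38 and 6.43 in ZnR mice, against 6.05, 6.17 and 6.35 in control mice. All ZnR mice lay above all control mice, narrowly so over control mouse 11, and the difference was 0.23 ± 0.09 (unadjusted p = 0.047, adjusted p = 0.78). Srebf1, which encodes the SREBP more tied to fatty acid synthesis, read 7.48, 7.65 and 7.34 in ZnR mice, against 7.57, 7.99 and 7.85 in control mice. Its difference had the opposite sign, -0.32 ± 0.14 (adjusted p = 0.78), and the groups overlapped. Insig2, the paralog of Insig1, differed by 0.07 ± 0.07, also with all ZnR mice above all control mice. Along the number 1 of these 7 was lower, and the median was 0.09; the 3 with the smallest p-values, Srebf1, Srebf2 and Mbtps1, a protease that cuts SREBPs, had fitted changes of 0.20, 0.17 and 0.09.

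Of 12 genes of cholesterol uptake, transport and turnover 11 were tested, 4 with a higher mean in ZnR mice, with a median of -0.02. Those with the smallest p-values were Osbp, a sterol-transfer protein, at -0.23 ± 0.11, Stard4, a soluble sterol carrier, at 0.28 ± 0.14, and Scarb1, a lipoprotein receptor, at 0.27 ± 0.15, with adjusted p-values of 0.80 to 0.84. Along the number 6 of 11 were lower, with a median of -0.02. Scarb1 had -0.43 ± 0.13 (adjusted p = 0.36), Stard4 -0.34 ± 0.16 (adjusted p = 0.54) and Lrp8, a receptor for apolipoprotein E, 0.13 ± 0.11. The 10 genes of SREBP-driven fatty acid synthesis were all tested, and 5 had a higher mean in ZnR mice, with a median of -0.02. Acaca, the acetyl-CoA carboxylase, differed by -0.18 ± 0.10 with ZnR mice below control mice, Fads2 by -0.12 ± 0.10 and Acly by 0.11 ± 0.09. Along the number 7 of 10 were lower, with a median of -0.06, and Elovl6, Acly and Scd1 had -0.22 ± 0.13, -0.11 ± 0.13 and -0.15 ± 0.18.

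**Figure D4:**
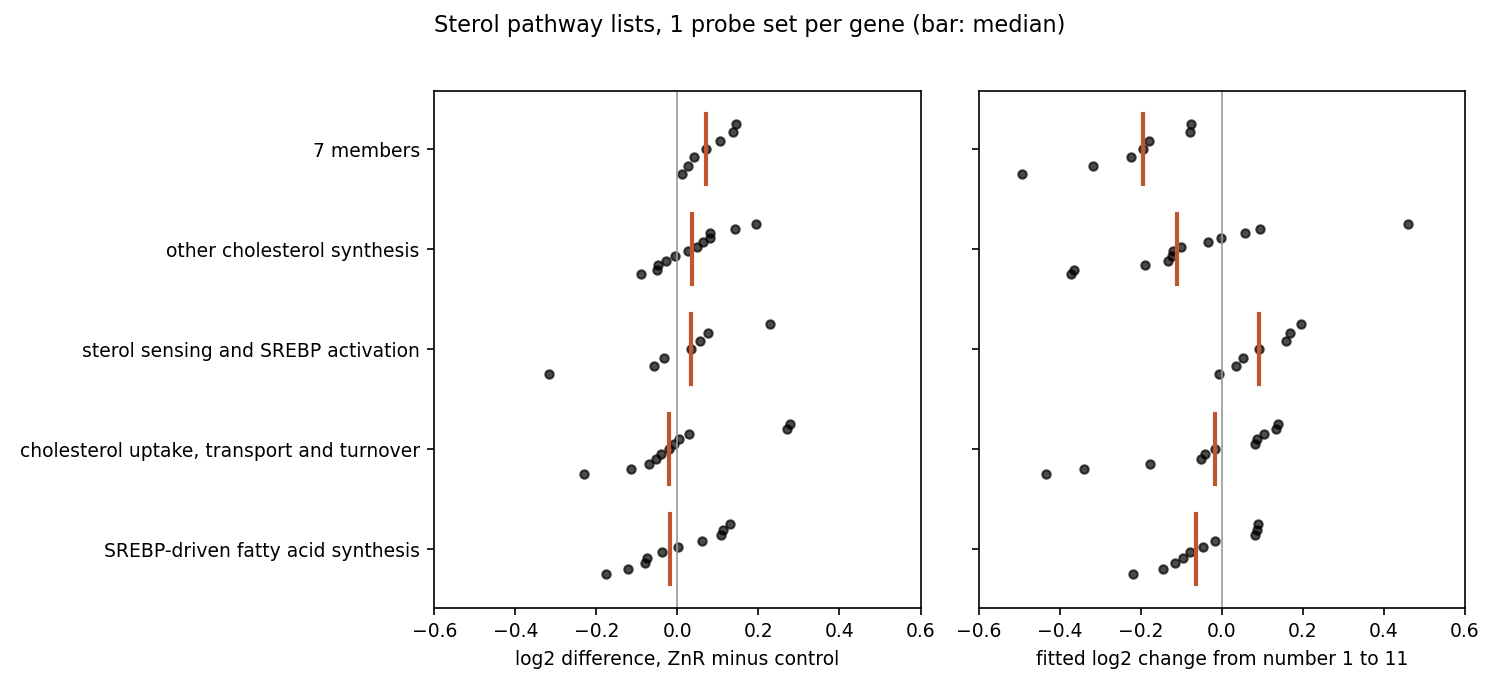
Log2 difference of ZnR minus control (left) and fitted log2 change from title number 1 to 11 (right) for the 7 genes and 4 lists of related genes (y axis), 1 point per gene, with the median as a bar. The 7 genes lie right of 0 for diet and left of 0 for the number; the sterol sensing list has 1 of 7 genes left of 0 for the number.

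Levels of cell type markers differed between the diets and in single mice, and their part in the values above was not tested. The dissection was read from 6 genes expressed in amygdala nuclei, all 6 above the filter. Their mean level was 8.56 to 8.59 in ZnR mice and 8.28 to 8.64 in control mice, lowest in control mouse 9. That mean hides diet differences in both directions. Cartpt (-0.90) and Lmo3 (-0.43) were lower in every ZnR mouse than in every control mouse, and Rspo2 (0.77) was higher. At an unadjusted limma p of 0.05, 4 of 6 passed for diet, against 6.38% of all probe sets tested, with a lowest adjusted p of 0.22. All 8 tested markers of striatal spiny neurons, of 9 listed, were higher in every ZnR mouse than in every control mouse. Over all 11221 genes tested, 911 were higher in every ZnR mouse and 623 lower in every ZnR mouse. The striatal markers had a mean level of 9.45 to 9.81 in ZnR mice against 8.21 to 8.54 in control mice. Their median difference was 1.19 (lowest adjusted p = 0.076). Myelin genes, whose cells make much cholesterol, had a mean level of 9.54 to 10.28 in ZnR mice over 10 of 12 markers. In control mice it was 9.08 to 9.69, with control mouse 9 the lowest. All 10 had a higher mean in ZnR mice, with a median difference of 0.41, where 54.5% of all genes tested did. Astrocyte markers, all 8 tested, averaged 10.32 to 10.46 in ZnR mice and 10.30 to 10.50 in control mice, lowest in control mouse 9 and highest in control mouse 1. Choroid plexus markers, 4 of 6 tested, averaged 5.62 to 6.56 in ZnR mice and 6.09 to 9.28 in control mice, with the high value in control mouse 9, where Ttr read 14.68. Among these markers, Kcnj13 and Kl would have missed the minimum mean level without control mouse 9, which widens the gap in the average. Neuron markers, 8 of 8, spanned 11.81 to 11.84 in ZnR mice and 11.75 to 11.85 in control mice; microglia markers, 6 of 6, spanned 8.54 to 8.60 in ZnR mice and 8.57 to 8.60 in control mice. Endothelial markers, 4 of 6, spanned 7.39 to 7.42 in ZnR mice and 7.19 to 7.48 in control mice. Control mouse 9 thus held the lowest level in most probe sets of the 7 genes, in the amygdala, astrocyte, myelin and neuron lists, and the highest level in the choroid plexus and endothelial lists. The mean level of the 7 genes, 1 probe set each, was 9.94, 9.89 and 9.77 in ZnR mice and 9.93, 9.68 and 9.75 in control mice.

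The genes whose levels ran most like the mean standardised level of the 7 genes over the 6 mice were Klhl1, Bcl11a, Kif5b, Acsl6, Peg3, Ptprd, Capn10 and Msl2. Their Pearson correlations with it were 0.997 for Klhl1, 0.99 for Bcl11a and 0.98 for the other 6, over 6 arrays. The Bcl11a probe set, 1447335_x_at, read only 4.20 to 4.56, just above the filter of 4, and its ending marks it as less specific. Of 19636 probe sets compared, 121 (0.616%) had a correlation above 0.9. With 6 arrays, this is a description. Klhl1 1449241_at, for example, read 5.37, 5.11 and 4.76 in ZnR mice, against 5.23, 4.47 and 4.69 in control mice. Like the 7 genes on average, it was high in ZnR mouse 3 and control mouse 1 and lowest in control mouse 9.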

How the data were processed

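RNA of 6 amygdala samples was measured on Affymetrix Mouse430_2 arrays from 500 ng of total RNA each, per the labels' protocols. The authors deposited log2 levels in 1 table of 45101 probe sets, 64 of them controls. Per the submitters' processing notes, the tools were GCRMA 2.28.0 and R 2.15.1. GCRMA subtracts a sequence-based background and sums probes to 1 value, which can pull low signals together. Files before that step were not used, so background calls are not given, and the number of arrays limits the precision.

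Symbols came from the platform annotation: 34958 probe sets had 1 symbol, 932 several and 9211 none. Groups and title numbers came from the sample titles. limma 3.58.1 in R 4.3.3 (lmFit, eBayes, two-sided) was fitted to all probe sets with a mean of at least 4 over the 6 arrays, with Benjamini-Hochberg adjustment over all of them, for diet alone and for the title number with diet in the model. Correlations with the number had exact permutation p-values over 720 orders. Data were simulated for 22877 probe sets with independent normal noise in each, and 100 probe sets were changed by 1 log2 unit and 100 by 2. Many true changes ease the Benjamini-Hochberg threshold, whereas in the mice 0 probe sets passed it for diet. On the simulated data the diet test recovered 79% of changes of 1 log2 unit and 98% of changes of 2. The trend test recovered 45% and 88%. No smaller change was simulated, whereas the diet differences of the 13 probe sets were at most 0.40, so the power for them is not known. In the mice, Gpr6 differed by 2.35 and Rgs9 by 1.80 between the diets, with adjusted limma p-values of 0.22 and 0.076. The simulation can thus overstate what the test finds. Alternatives covered the filter, normalization, array weights, variance settings, 1 value per gene, a floor, covariates and leaving out each mouse.

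The 7 genes and all lists were chosen with earlier results of these data known. From each related list, up to 3 genes with the smallest p-value were named. Some genes of the pathway are not analysed here.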

Additional observations from a re-analysis of the deposited data

How the results depend on the processing

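None of the 13 member probe sets passed an adjusted p of 0.05 under any alternative that was run, for diet or for the title number. The medians over the 7 genes moved by less than 0.146, the median residual SD between mice of their probe sets. For diet this SD is larger than the median difference itself, 0.07, which ranged from -0.0020 to 0.16 with 1 mouse left out. That yardstick therefore does not show the diet median to be stable. The counts over all probe sets were small and moved. For diet, 0 passed an adjusted p of 0.05 in limma (1460 at an unadjusted p under 0.05), against 2 with a minimum mean level of 6, 3 with trend and robust eBayes settings, 2 with probe sets averaged per gene and 1 with the number as a covariate. For the number, 1 passed, against 3 with no filter, 8 with trend and robust eBayes settings, and 0 with a minimum of 6, gene means, a floor of 4, the number alone or its rank. Leaving out 1 mouse gave 0 to 165, the 165 without control mouse 9. The cause was not tested.

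Of the 13 member probe sets, those at an unadjusted p under 0.05 for diet numbered 2 with array weights (10.3% of all probe sets), 0 of 7 with gene means (8.05% of all genes) and 0 to 3 with 1 mouse left out (3.73% to 9.8%). For the number they numbered 0 (9.95%), 1 of 7 (9.66%) and 1 to 4 (7.17% to 11.9%). With gene means 6 of 7 genes were higher in ZnR mice, with Lss at -0.062, and 7 of 7 lower with the number. With 1 probe set per gene, 54.5% of all genes tested were higher in ZnR mice and 40.1% lower with the number. With 1 mouse left out, 8 to 12 probe sets were higher in ZnR mice and 8 to 13 lower with the number. Quantile normalization turned the diet difference of Cyp51 1450646_at to -0.0080. Array weights turned that of Sqle to -0.028, and the trends of Idi1 1423804_a_at, Lss 1426913_at and Hmgcs1 1433444_at to 0.074, 0.15 and 0.066. With 1 mouse left out, diet differences that changed sign ranged from -0.098 to 0.11 (Sqle), -0.26 to 0.11 (Lss 1420013_s_at), -0.081 to 0.18 (Lss 1426913_at), -0.043 to 0.12 (Cyp51 1450646_at), -0.0020 to 0.16 (Hmgcs1 1433445_x_at), -0.0097 to 0.10 (Hmgcs1 1433446_at) and -0.0046 to 0.34 (Insig1). Trends that did so ranged from -0.53 to 0.097 (Cyp51 1422533_at), -0.60 to 0.39 (Idi1 1423804_a_at), -0.40 to 0.38 (Lss 1426913_at), -0.23 to 0.20 (Hmgcs1 1433444_at), -0.28 to 0.067 (Hmgcs1 1433445_x_at), -0.55 to 0.12 (Sqle) and -0.52 to 0.083 (Fdps). No paired analysis was possible because the diets share no replicate number.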
